A study of Mus musculus with 20 samples.

Results

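The comparison described here is that of triceps muscle from SOD1G93A mice with triceps from non-transgenic (NTg) mice of the same age: 4 arrays against 4, chosen by the titles of the samples, out of 20 arrays in the series. Both groups were female mice of the C57BL/6 strain, aged 14 weeks, and the SOD1G93A mice carried a human SOD1 transgene with the G93A mutation and were at a stage the labels call symptomatic. Nothing in the labels names the transgene's promoter, its copy number or the founder line. The other arrays, used only for comparison, were 4 SOD1G93A and 4 NTg gastrocnemius muscles of the same age and sex, and 4 gastrocnemius muscles of mice whose nerve had been crushed 2 weeks before, whose genotype is not stated. Log2 signals were given for 10748 probe sets of each array, and whether others were left out beforehand is not stated. By their mean over all 20 arrays, 7523 of the 10748, standing for 4832 named genes, were bright enough to be tested.

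Mutant SOD1 in these mice causes motor neuron loss, and muscle fibres lose their nerve contact as the disease advances. A fibre without its nerve is known to make acetylcholine receptor subunits along its whole length rather than only at the junction, to switch on the myogenic transcription factors that drive receptor genes, and to lose mass through the ubiquitin-proteasome system. Sarcolipin, a small membrane peptide of the sarcoplasmic reticulum, binds the SERCA calcium pump and lowers the amount of calcium moved for each ATP split.

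Before the results, a few arrays need a remark. For NTg triceps replicate 4 the free-text description names gastrocnemius, whereas its title, source and tissue label all name triceps; its mean correlation was 0.945 with the other NTg triceps arrays and 0.909 with the NTg gastrocnemius arrays, against 0.957 and 0.966 for NTg triceps replicate 1. The same means were 0.963 and 0.938 for replicate 2 and 0.957 and 0.953 for replicate 3. Replicate 1 alone was thus closer to gastrocnemius than to its own muscle. Replicate 4 was kept as triceps. Without it 13 of the 23 genes called with all 8 arrays stayed called, and the limma adjusted p of the other 10 was 0.0523 for Cdkn1a, 0.0746 for Ccn1, 0.0851 for Myf6 and Mdm2, 0.0861 for Gadd45a, 0.0900 for Ctsl, 0.0901 for Chrna1 and Mt2, 0.109 for Cd82 and 0.118 for Pstpip2. SOD1G93A triceps replicate 4 stood apart from the rest: the first principal component, which held 38.4% of the variance, placed it at 39.4, while the other SOD1G93A arrays lay between -0.69 and 13.4 and the NTg arrays between -21.9 and -2.76. Array medians ran from 6.61 to 6.76 on the log2 scale, and the mouse Sod1 probe set, which reads the endogenous gene and so does not check the transgene, was at 11.19, 10.40, 11.28 and 10.44 in SOD1G93A and at 10.55, 10.82, 11.01 and 10.27 in NTg (log2 difference 0.16, SE 0.24, limma adjusted p 0.79). The groups overlapped for that gene. The labels call the replicates biological but tie no number to a mouse.

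A small set of genes rose in SOD1G93A triceps, and the rise of 1 of them was far larger than that of any other. With limma on the 8 triceps arrays, 26 probe sets of 23 named genes were higher at an adjusted p under 0.05 (0.346% of all probe sets tested) and 1 was lower (0.0133%), or 27 in either direction (0.359%). At an unadjusted p under 0.05 there were 570 higher and 406 lower, against 376 expected by chance in both directions together. In a fit that shares its estimate of spread over all 20 arrays, 18 were higher (0.239%) and 0 lower, and 13 probe sets were called by both fits. Sharing the spread over the 16 SOD1G93A and NTg arrays of both muscles gave 77 higher (1.02%) and 9 lower (0.12%), which included all 27 of the 8-array fit. Over 19 arrays, without the fourth crushed muscle, there were 146 higher (1.94%) and 21 lower (0.279%). Leaving out single arrays gave between 9 and 28 called higher, 25 without SOD1G93A replicate 4 and 17 without NTg replicate 4, and 0 called lower in each of those 8 fits. Of the 23 genes, 7 (Sln, Cpne2, Tubb6, Sh3d19, Nabp1, Ampd3 and Errfi1) stayed called whichever array was left out. For 6 of the 23 (Sln, Cpne2, Tubb6, Galnt7, Sh3d19 and Lgals3) the NTg triceps mean was under 5.88, the filter's cut on the 20-array mean. These 6 were thus tested only because arrays of other groups were brighter. The median log2 difference over all tested probe sets was 0.01.

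**Figure D1:**
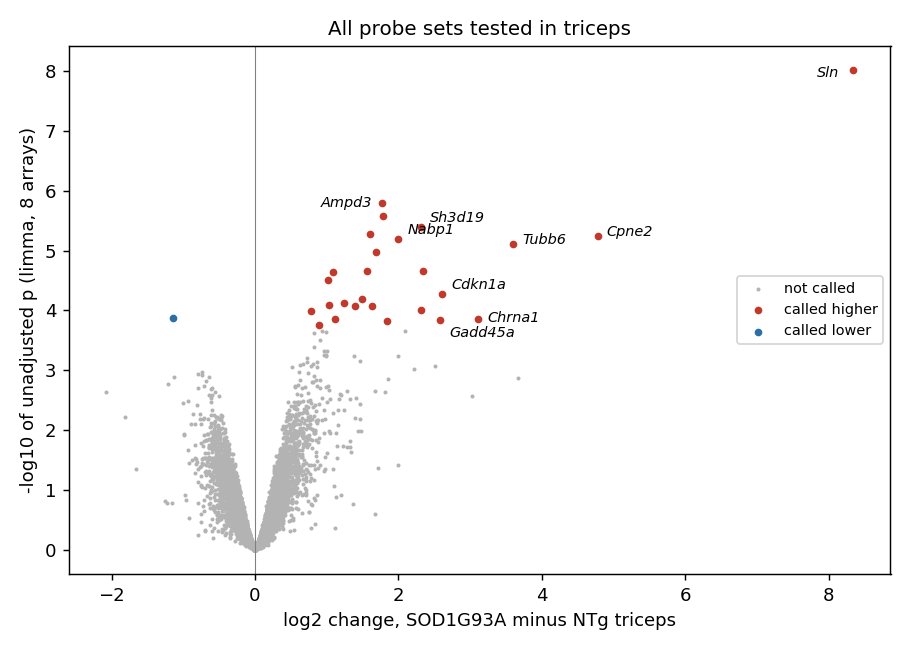
Each point is a probe set tested in triceps: the x axis is the log2 change (SOD1G93A minus NTg) and the y axis the -log10 of the unadjusted limma p from the 8 arrays. The 26 red points (called higher) lie to the right with Sln at 8.34, and the single blue point (called lower) lies at -1.15.

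Sln, which encodes sarcolipin, showed the largest change among the probe sets tested. Its log2 signal was 9.52, 10.56, 10.43 and 11.71 in the SOD1G93A triceps and 0.59, 3.10, 2.27 and 2.88 in the NTg triceps. Every SOD1G93A array lay more than 6 log2 units above every NTg array, and the controls were at the dim end of the scale. The gene rose by 8.34 on the log2 scale (SE 0.55, limma adjusted p 7.29e-05; 1.06e-07 with the 20-array spread), a fitted fold of 325 with a 95% interval from 140 to 753. Because the control values lie where this signal measure is least certain, the fold depends on how dim values are handled: with every value under 4.82 set to that floor, the log2 change was 5.73. The rise remained 7.96 without SOD1G93A replicate 4 and 8.57 without NTg replicate 4. In gastrocnemius the same comparison gave 4.88 (SE 0.59), and the difference between the muscles was 3.47 (SE 0.84), with an unadjusted limma p of 0.000694 and an adjusted p of 0.370 over all probe sets. The gastrocnemius controls lay at 7.99, 5.70, 8.63 and 7.70, above the floor of 4.82, and the triceps controls below it; with dim values set to the floor the difference between the muscles was 0.86 (SE 0.74, limma adjusted p 0.727).

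No other calcium-handling gene, the SERCA pumps included, passed the test on the 8 arrays. Of 25 tested genes that handle calcium or couple excitation to contraction, 8 were above and 17 below 0, Sln alone was called, and the median log2 difference was -0.10. Atp2a1, the fast-fibre pump, differed by -0.84 and Atp2a2, the slow-fibre pump, by 0.54, both without passing the test. Cacng1, the gamma subunit of the muscle voltage-gated calcium channel, was at 9.44, 9.89, 9.91 and 10.06 against 9.05, 9.23, 9.17 and 8.65, with no overlap between groups and a difference of 0.80 (SE 0.18, limma adjusted p 0.127) that did not pass the test on the 8 arrays or with the 20-array spread (0.107), and passed it with the 16-array and 19-array spreads (0.00975 and 0.00495). Ryr1, the calcium release channel, differed by -0.30 and Casq1, the fast calcium store protein, by -0.54.

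Of the acetylcholine receptor genes, which mark loss of nerve input, Chrna1 was called. Chrna1, the alpha subunit to which acetylcholine binds, was at 7.59, 8.86, 8.62 and 11.03 in SOD1G93A triceps and at 5.96, 6.05, 5.83 and 5.81 in NTg triceps. The 4 controls lay close together, all SOD1G93A arrays were above them, and replicate 4 was the highest. Chrna1 rose by 3.11 (SE 0.55, limma adjusted p 0.0433), a fold of 8.66 (95% interval 3.76 to 19.9). The adjusted p was 0.0955 with the 20-array spread and 0.0901 without NTg replicate 4, while without SOD1G93A replicate 4 the change was 2.45 with an adjusted p of 0.00522. The Chrna1 call was lost in 6 of the 8 fits that left out an array. Chrnb1, the beta subunit, was at 7.40, 7.53, 7.11 and 9.18 against 6.37, 6.64, 6.65 and 5.69; its difference of 1.47 (SE 0.40, limma adjusted p 0.233) did not pass the test although the groups did not overlap. Among the 5 tested genes of the junction and of excitability, Chrna1 was the 1 called; Rapsn, which clusters the receptors, differed by 0.04, Utrn by -0.06 and the chloride channel Clcn1 by -0.37, and the median was 0.04. The fetal gamma subunit Chrng was too dim for the filter, and by the brighter of its 2 probe sets it was at 0.96, 3.56, 2.12 and 8.65 in SOD1G93A and at 0.59, 0.81, 1.87 and 0.28 in NTg, so that it was bright in replicate 4 alone.

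Promoter windows were available for 18 of the 23 called genes, from 250 bases before to 50 after the RefSeq start (build GRCm38.p6), and are shown where a motif tied to the gene's known regulation was found. The window of Chrna1, at chr2:73580289-73580588 on the minus strand, held 2 matches to CAGCTG, the core bound by myogenic factors, in capitals:

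Chrna1 promoter: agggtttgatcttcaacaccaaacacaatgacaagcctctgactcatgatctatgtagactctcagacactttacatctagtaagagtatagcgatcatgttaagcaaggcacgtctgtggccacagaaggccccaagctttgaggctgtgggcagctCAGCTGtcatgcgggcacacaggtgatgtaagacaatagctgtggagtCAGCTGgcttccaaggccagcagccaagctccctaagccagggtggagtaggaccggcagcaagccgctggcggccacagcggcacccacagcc

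That motif is a case of the wider E-box CANNTG, of which the window held 3; both read the same on either strand. CAGCTG occurred in 16.3% of the 32851 windows in the table, and CANNTG in 72.3%. Of the 18 called genes with a window, 3 held CAGCTG (Chrna1, Cdkn1a and Mdm2) and 13 held CANNTG. Some of these genes have several windows: of their 26 windows, 3 held CAGCTG and 18 held CANNTG. A match describes the letters of the window and shows no binding.

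Of the 10 tested myogenic transcription factors and sarcomere genes of development, 8 were above and 2 below 0, with a median log2 difference of 1.10; 1 was called (Myf6), and 4 had no overlap between groups (4.69% of all probe sets were higher without overlap). The mean over the list, relative to the NTg mean, was 0.73, 0.49, 0.79 and 2.18 in the 4 SOD1G93A arrays. Without SOD1G93A replicate 4 the median was 0.40, and 4 members were called. The count over all probe sets in that fit is among those given above for single arrays left out. The share of 0.346% of all probe sets called higher belongs to the fit of all 8 arrays, in which 1 member was called. Myf6, also called MRF4, the myogenic factor of mature fibres, was at 9.42, 9.25, 9.38 and 10.04 against 8.14, 8.49, 8.57 and 7.92. It rose by 1.24 (SE 0.20, limma adjusted p 0.0333; 0.107 with the 20-array spread). Without SOD1G93A replicate 4 the change was 1.07 (limma adjusted p 0.0319), and the call was lost in the other 7 of the 8 fits that left out an array.

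Myog, Ankrd1 and Myl4 behaved differently, and were chosen for description after their values were seen. Myogenin (Myog), which drives the receptor genes after denervation, was at 7.57, 7.57, 7.80 and 10.20 against 5.83, 6.33, 6.25 and 5.87. Its difference of 2.22 (SE 0.50, limma adjusted p 0.135) missed the threshold with all 8 arrays, and was 1.58 with an adjusted p of 0.00522 without SOD1G93A replicate 4. The other 3 SOD1G93A arrays thus lay close together and above all controls, and the single high array widened the spread of its group. Ankrd1, a stretch-responsive protein of the sarcomere, gave 6.56, 6.73, 6.62 and 10.80 against 4.31, 4.77, 4.98 and 4.51, a difference of 3.03 (limma adjusted p 0.208) that became 1.99 (0.00548) without that array. Myl4, the embryonic light chain, gave 6.52, 6.86, 6.67 and 8.92 against 5.48, 5.32, 5.43 and 5.31, a difference of 1.86 (0.167) that became 1.30 (0.0149). Myod1 was above the controls in replicate 4 (9.33) but overlapped them in the other arrays (6.92 to 7.34 against 6.46 to 6.95), and its difference was 0.96 (limma adjusted p 0.381).

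Dimmer developmental genes, below the filter, were also highest in SOD1G93A replicate 4. Embryonic myosin Myh3 was at 4.96, 5.27, 5.45 and 8.24 in SOD1G93A and at 3.79, 1.17, 1.96 and 4.06 in NTg. Perinatal myosin Myh8 was at 4.34, 4.91, 4.89 and 9.05 against 3.38, 4.03, 4.26 and 4.30. The cardiac and embryonic troponin Tnnt2 was at 4.43, 5.15, 5.34 and 9.31 against 4.14, 4.49, 1.28 and 3.65. None passed the test in the fit without a filter (limma adjusted p 0.200, 0.438 and 0.372). Without SOD1G93A replicate 4 the difference was 2.48 of 3.23 for Myh3, 0.72 of 1.81 for Myh8 and 1.58 of 2.67 for Tnnt2, with limma adjusted p of 0.333, 0.718 and 0.699. Runx1, a transcription factor that rises in denervated muscle, was at 4.37, 4.71, 5.26 and 7.87 against 0.40, 1.37, 2.62 and 2.94 by its brighter set, with no overlap, a difference of 3.72 and an adjusted p of 0.112.

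**Figure D2:**
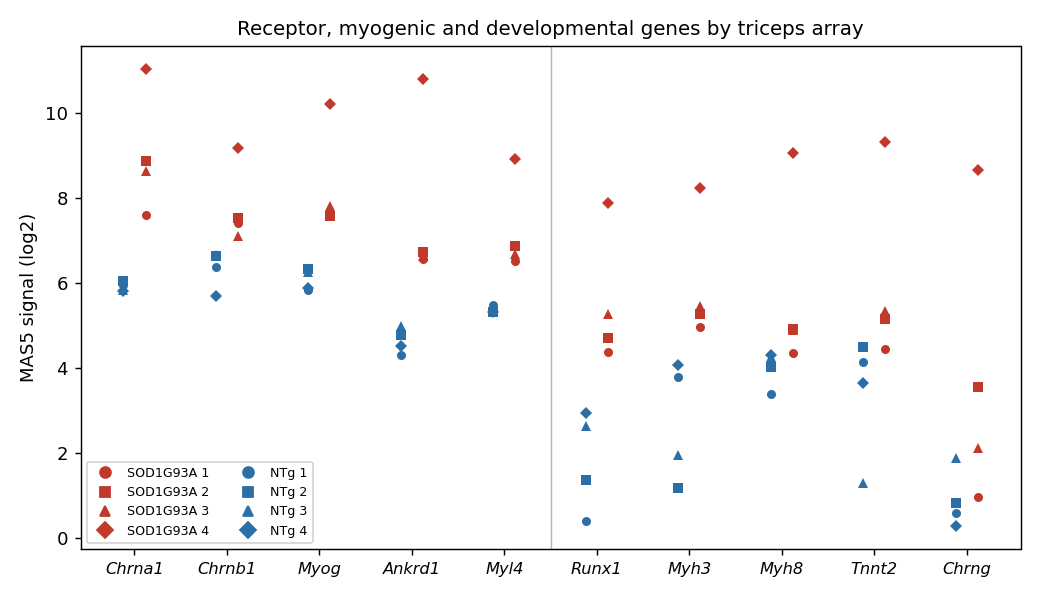
Log2 MAS5 signal of receptor, myogenic and developmental genes in each triceps array (red SOD1G93A, blue NTg; the marker shape gives the replicate). Genes right of the grey line were below the filter; SOD1G93A replicate 4 (red diamonds) is the highest array for every gene drawn, at 10.20 for Myog and 9.05 for Myh8.

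The growth arrest and p53 pathway genes Cdkn1a, Gadd45a and Mdm2 rose, and so did the polyamine enzyme Odc1. Of the 17 tested members of this list, 12 were above and 5 below 0, 4 were called higher (0.346% of all probe sets were) and 0 lower, and the median was 0.26. With 1 probe set a gene, 0 of the 17 were called with the 20-array spread and 5 with the 16-array spread (1.02% of all probe sets were called higher there). That count takes the brightest Odc1 probe set. The Odc1 probe set with the largest change stayed called with the 20-array spread. Of the 8 fits that left out an array, the calls of Cdkn1a, Gadd45a and Mdm2 were each lost in 6. That of Odc1, by its probe set with the largest change, was lost in 4. Without SOD1G93A replicate 3, 0 of the 17 were called with 1 probe set a gene. Cdkn1a, which encodes the cyclin-dependent kinase inhibitor p21, was at 8.87, 9.50, 9.36 and 10.88 against 7.50, 6.85, 7.60 and 6.19. It rose by 2.62 (SE 0.41, limma adjusted p 0.0289; 0.107 with the 20-array spread), a fold of 6.13 (95% interval 3.27 to 11.5). A second Cdkn1a probe set below the filter was at 6.45, 6.57, 7.04 and 9.14 against 3.28, 2.18, 3.02 and 3.78 and rose by 4.24 in the fit without a filter (limma adjusted p 0.00642). Both probe sets therefore separated the groups. Gadd45a, a stress-induced growth arrest gene, was at 8.19, 8.63, 8.92 and 10.29 against 7.30, 5.42, 6.27 and 6.71 and rose by 2.58 (SE 0.46, limma adjusted p 0.0441; 0.118 with the 20-array spread). Mdm2, the ligase that degrades p53, was at 8.06, 8.44, 8.49 and 8.63 against 7.71, 7.15, 7.19 and 7.42 and rose by 1.04 (SE 0.17, limma adjusted p 0.0333; 0.0833 with the 20-array spread). A second Mdm2 probe set overlapped between groups and differed by 0.73 (limma adjusted p 0.315).

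Other genes of the p53 group moved less. Phlda3, a p53 target that restrains Akt, differed by 0.56 (limma adjusted p 0.181) without overlap, while Ccng1 differed by -0.31 and Sesn1 by -0.52. Odc1, which makes putrescine in the first step of polyamine synthesis, was at 8.88, 9.60, 9.70 and 9.99 against 7.79, 8.22, 8.15 and 7.77 by its probe set with the largest change and rose by 1.56 (SE 0.22, limma adjusted p 0.0141). Another probe set rose by 1.09 with the same adjusted p, and the dimmest differed by 0.79 (limma adjusted p 0.263). Smox, the spermine oxidase, differed by -0.75 (limma adjusted p 0.367). Rb1, the retinoblastoma protein that holds cells out of the cycle, lies outside the naming rule and was chosen after its values were seen; it was at 8.19, 8.42, 8.06 and 9.03 against 6.92, 6.51, 6.85 and 7.44 and rose by 1.50 (SE 0.24, limma adjusted p 0.0325; 0.109 with the 20-array spread). That call was lost in 4 of the 8 fits that left out an array. Cdkn1b, which encodes the related inhibitor p27, was at 7.05, 6.82, 6.69 and 6.40 against 7.26, 7.31, 7.48 and 7.34, a difference of -0.61 that did not pass the test (limma adjusted p 0.221). None of the 6 tested cell cycle genes was called, and their median was 0.04.

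A window of the Cdkn1a promoter at chr17:29090729-29091028 on the plus strand held 1 CAGCTG, in capitals:

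Cdkn1a promoter: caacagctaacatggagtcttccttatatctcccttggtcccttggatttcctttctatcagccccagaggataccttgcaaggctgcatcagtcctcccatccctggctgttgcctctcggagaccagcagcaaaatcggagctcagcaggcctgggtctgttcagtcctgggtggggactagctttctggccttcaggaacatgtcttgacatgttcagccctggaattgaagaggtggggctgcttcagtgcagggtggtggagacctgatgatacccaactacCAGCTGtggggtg

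Immediate-early genes, which answer many stimuli within minutes, were higher in 12 of 13 tested members (51.8% of all tested probe sets were above 0), with a median of 0.55. Of the 13, 3 were called (0.346% of all probe sets were called higher). Jun, a subunit of the AP-1 factor, was at 9.04, 8.03, 8.27 and 9.33 against 6.77, 7.11, 6.94 and 7.35 and rose by 1.63 (SE 0.27, limma adjusted p 0.0333; 0.0354 with the 20-array spread). Another probe set of Jun overlapped between groups and differed by 1.20 (limma adjusted p 0.206). Errfi1, a feedback inhibitor of the EGF receptor, was at 8.36, 7.54, 7.91 and 8.35 against 5.95, 6.74, 6.45 and 6.28 and rose by 1.69 (SE 0.22, limma adjusted p 0.00886). Ccn1, a secreted matrix-associated protein, was at 8.15, 7.50, 7.05 and 7.52 against 5.80, 6.08, 6.46 and 6.27 and rose by 1.40 (SE 0.23, limma adjusted p 0.0333; 0.114 with the 20-array spread). Its other probe set differed by 1.38 without overlap and was not called (limma adjusted p 0.110). The Jun call was lost in 5 and the Ccn1 call in 6 of the 8 fits that left out an array. In these 3 genes SOD1G93A replicate 4 did not stand apart. Fos and Egr1 varied widely within groups: Fos was at 10.04, 8.04, 8.32 and 5.98 against 6.02, 7.22, 6.26 and 8.06, and its difference of 1.21 did not pass the test (limma adjusted p 0.479). Replicate 1 carried the highest mean of the list among SOD1G93A arrays, 1.39 above the NTg mean, against 0.45 to 0.58 in the other 3, and without it the median was 0.34. Junb, below the filter, was at 7.13, 6.31, 6.97 and 7.22 against 4.58, 3.76, 4.01 and 5.44 and rose by 2.46 in the fit without a filter (limma adjusted p 0.0118), a call lost when any of 3 of the 8 arrays was left out.

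Metallothionein Mt2, a small cysteine-rich protein that binds zinc and copper, was called higher within the antioxidant and metal response list. Its values were 9.06, 7.60, 8.86 and 9.43 against 6.49, 7.04, 7.06 and 6.96, all SOD1G93A arrays above all controls with replicate 2 the closest to them. Mt2 rose by 1.85 (SE 0.33, limma adjusted p 0.0441; 0.0211 with the 20-array spread), and the call was lost in 7 of the 8 fits that left out an array. Mt1, its neighbour in the family, overlapped between groups and differed by 0.76 (limma adjusted p 0.365). Of 23 tested members 15 were above and 8 below 0 (51.8% of all probe sets were above), 6 lay above all controls (4.69% of all did), and the median was 0.16. Thioredoxin (Txn1) differed by 0.62, sulfiredoxin (Srxn1) by 0.67 and the regulator Nfe2l2 by 0.49, each without overlap and with limma adjusted p of 0.169, 0.281 and 0.263. Another tested probe set of Srxn1 overlapped between groups and differed by 0.45 (limma adjusted p 0.470). A further Srxn1 probe set, below the filter, differed by 0.86 without overlap. Nxn, nucleoredoxin, was at 7.73, 7.64, 7.79 and 8.18 against 6.81 to 7.17 in the controls; its difference of 0.82 had a limma adjusted p of 0.0578 on 8 arrays and 0.0331 with the 20-array spread.

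The pattern searched for metal response, TGCNCNC, is a looser form of the core TGCRCNC, where R is A or G. The Mt2 window at chr8:94172368-94172667 on the plus strand held 6 matches to TGCNCNC over both strands and 1 to the AP-1 motif TGANTCA, in capitals:

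Mt2 promoter: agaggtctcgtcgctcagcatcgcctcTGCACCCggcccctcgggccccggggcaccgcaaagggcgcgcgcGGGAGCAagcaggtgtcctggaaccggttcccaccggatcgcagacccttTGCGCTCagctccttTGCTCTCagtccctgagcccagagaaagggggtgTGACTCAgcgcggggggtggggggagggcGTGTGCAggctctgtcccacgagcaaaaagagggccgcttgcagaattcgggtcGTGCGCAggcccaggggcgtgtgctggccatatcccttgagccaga

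The matches TGCTCTC and GGGAGCA in Mt2 fit only the looser form. TGCNCNC is short and was found in 51.0% of all windows. It was in 13 of the 26 windows of called genes, and in 11 of the 18 called genes with a window. TGANTCA was found in 7.8% of all windows, in 3 of those 26 windows and in 3 of the 18 genes.

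Several called genes belonged to none of the lists, or were alone in theirs. Cpne2, a calcium-dependent phospholipid-binding copine, was at 7.19, 7.43, 7.56 and 9.23 against 3.55, 3.21, 1.36 and 4.16. The controls were dim, and the gene rose by 4.78 (SE 0.59, limma adjusted p 0.00696), or by 3.03 with dim values set to the floor. Tubb6, a beta-tubulin of the microtubule network, was at 7.62, 8.13, 7.13 and 8.94 against 4.78, 5.14, 3.09 and 4.39 and rose by 3.60 (SE 0.46, limma adjusted p 0.00723). It was the 1 called of 16 tested tubulin and intermediate filament genes, whose median was 0.08; the keratin Krt18 was at 8.98 in SOD1G93A replicate 4 and overlapped the controls in the other arrays (5.37 to 6.26 against 3.31 to 6.71). Sh3d19, an adaptor with SH3 domains, was at 6.87, 6.65, 7.40 and 8.01 against 4.93, 4.70, 5.10 and 4.95 and rose by 2.31 (SE 0.28, limma adjusted p 0.00696). Galnt7, an enzyme of O-linked glycosylation, was at 6.67, 7.12, 6.94 and 8.39 against 5.17, 4.89, 4.57 and 5.14 and rose by 2.34 (limma adjusted p 0.0141). Its other probe set differed by 1.24 without overlap and was not called (limma adjusted p 0.252). Ampd3, an AMP deaminase, was at 7.82, 8.32, 8.11 and 8.76 against 6.14, 6.51, 6.52 and 6.67 and rose by 1.79 (SE 0.20, limma adjusted p 0.00655). For all 5 genes the 4 SOD1G93A arrays lay above all 4 controls, and replicate 4 was the highest, as it was in 19 of the 23 called genes.

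Nabp1, a single-stranded DNA-binding protein of the DNA damage response, was an exception to that order, with its highest value in replicate 2. It was at 7.45, 8.38, 7.89 and 7.85 against 5.81, 5.82, 5.43 and 6.52 and rose by 2.00 (SE 0.25, limma adjusted p 0.00696; 0.00519 with the 20-array spread); a second probe set rose by 1.77 (limma adjusted p 0.00596). Among the smaller called rises, Cd82, a tetraspanin, rose by 1.12 (limma adjusted p 0.0433), Anxa7, a calcium-dependent membrane-binding annexin, by 1.02 (0.0183) and Pstpip2, an F-actin-associated protein, by 0.89 (0.0478), with limma adjusted p of 0.109, 0.0663 and 0.107 with the 20-array spread; these 3 lie outside the naming rule and were chosen after their values were seen. The Pstpip2 call was lost in each of the 8 fits that left out an array. Other probe sets differed by 0.64 for Anxa7 (limma adjusted p 0.204) and by 0.82 and 0.66 for Pstpip2 (0.281 and 0.285), none called. Genes called only with the 20-array spread were, besides Nxn, Nrip1 (a nuclear receptor corepressor, 1.28), Nap1l1 (a histone chaperone, 0.94), Mob4 (0.87) and Psme3ip1 (0.72), with limma adjusted p between 0.0331 and 0.0438 there and between 0.0568 and 0.198 on 8 arrays.

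**Figure D3:**
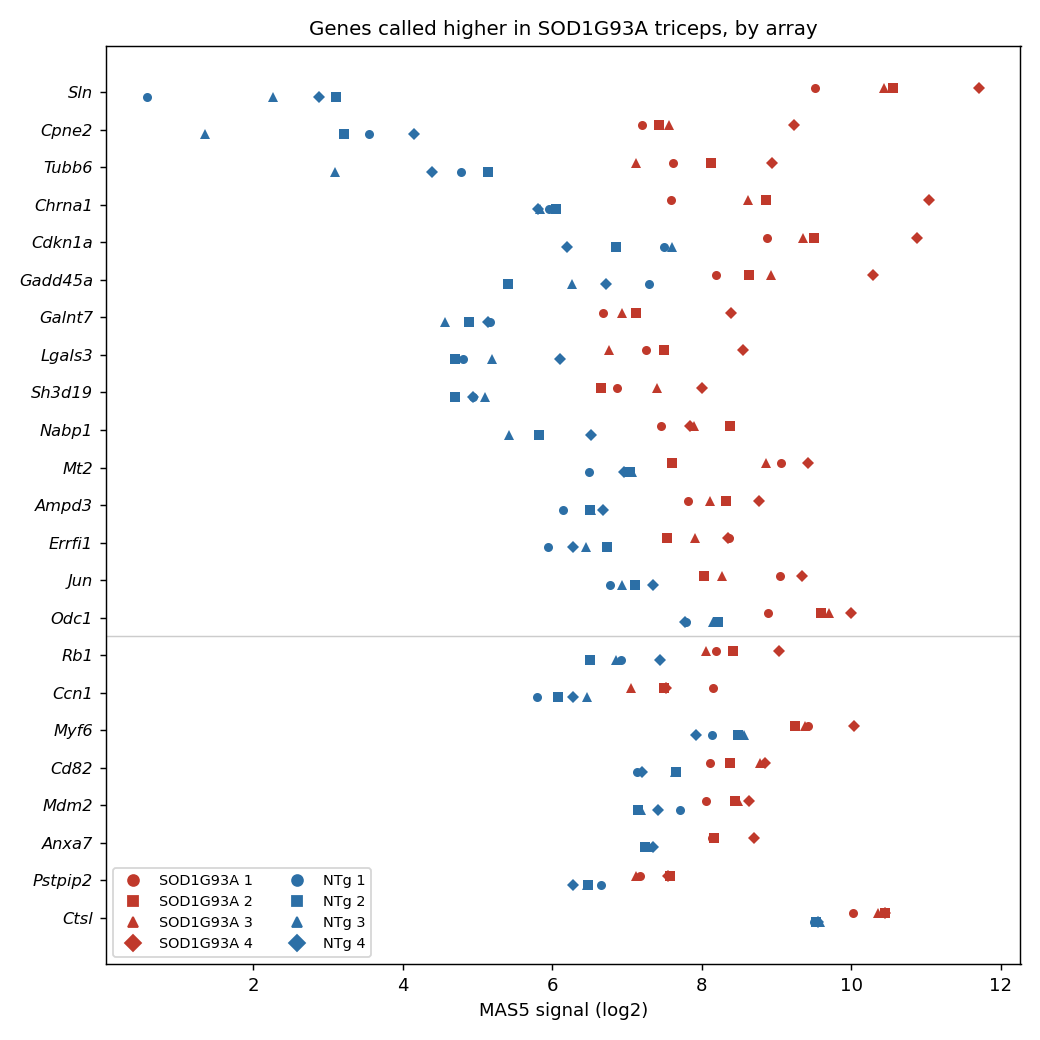
Log2 MAS5 signal of the 23 genes called higher, in each triceps array (red SOD1G93A, blue NTg; the marker shape gives the replicate). Above the grey line are the 15 largest rises, below it the other 8; all red markers of a gene lie right of all its blue ones, and Sln spans from 0.59 to 11.71.

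Below the filter, 3225 probe sets were left out of the main test, and 5 of them were called higher and 1 lower when the filter was lifted; they were named after their values were seen. Rrad, a Ras-related GTPase that inhibits calcium channels, was at 6.68, 7.70, 7.42 and 9.02 against 1.10, 1.09, 1.80 and 3.16 and rose by 5.92 (SE 0.54, limma adjusted p 0.000786). Col19a1, a minor collagen of basement membrane zones, was at 6.73, 7.24, 7.18 and 8.07 against 3.93, 4.35, 3.93 and 4.05 and rose by 3.24 (SE 0.27, limma adjusted p 0.000399). Aldh3a1, an aldehyde dehydrogenase, was at 6.02, 6.34, 5.69 and 5.74 against -0.23, 0.40, 2.17 and 2.32 and rose by 4.78 (SE 0.57, limma adjusted p 0.00447). All 3, unlike Junb, were called in each of the 8 fits that left out an array. In gastrocnemius the same comparison gave 6.23 for Rrad, 4.04 for Col19a1 and 3.70 for Aldh3a1, each called (limma adjusted p 2.6e-05, 0.00114 and 0.000222). Their control values are near the dim end of the scale, and the sizes of these changes are uncertain there.

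Proteasome subunits, which degrade ubiquitin-tagged proteins, were higher in 32 of 37 tested members, with a median log2 difference of 0.30, and 13 had no overlap between groups, against 4.69% of all probe sets. None was called on the 8 arrays and 4 were in the 16-array fit (1.02% of all probe sets were called higher there). Psmd4, the ubiquitin receptor of the regulatory cap, was at 9.55, 9.69, 9.51 and 9.61 against 9.10, 9.06, 9.13 and 9.02, a difference of 0.51 (SE 0.11, limma adjusted p 0.127). Psmc5, an ATPase of the cap, was at 9.50, 9.64, 9.34 and 9.82 against 9.07, 8.77, 8.95 and 9.04, a difference of 0.62 (SE 0.14, limma adjusted p 0.149). Psma7, of the core, differed by 0.54 and Psmc1, of the cap, by 0.63, neither called, while the immunoproteasome subunit Psmb10 differed by -0.24. The atrophy ubiquitin ligases and FoxO factors had 5 members above and 5 below 0 with a median of 0.05, none called; Foxo1 differed by 0.59 (limma adjusted p 0.281) and the ligase Fbxo32, also called atrogin-1, by 0.40 (limma adjusted p 0.427).

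In the autophagy and lysosome list Ctsl, a lysosomal cysteine protease, was called: it was at 10.02, 10.45, 10.35 and 10.45 against 9.50, 9.52, 9.58 and 9.55, and rose by 0.78 (SE 0.13, limma adjusted p 0.0367; 0.161 with the 20-array spread). Its call was lost in 7 of the 8 fits that left out an array. The 22 tested members had a median of 0.07, with 14 above 0 and 8 below. Map1lc3a differed by 0.60 and Sqstm1, a cargo receptor of autophagy, by 0.37, neither called. Folding genes of the endoplasmic reticulum and the integrated stress response were above 0 in 15 of 18 tested members with a median of 0.23 and none called; Hspa5, the reticulum's main chaperone, differed by 0.50 (limma adjusted p 0.347), Ppp1r15a, a phosphatase subunit that restarts translation, by 0.57 (0.263), and Chac1 by -0.75. Heat shock genes were above 0 in 13 of 19, median 0.13, none called. Of the 19, 4 were higher without overlap between groups (4.69% of all probe sets were). The small heat shock proteins Hspb7 (1.47, limma adjusted p 0.263) and Hspb8 (0.80, 0.173) were among these. Other probe sets of Hspb7 overlapped between groups and differed by 1.44 and 1.28 (limma adjusted p 0.281 and 0.315).

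Energy metabolism and sarcomere genes lay on the other side of 0, with no member called. All 73 tested respiratory chain genes were below 0 (48.2% of all tested probe sets were), with a median of -0.36 and a range from -0.63 to -0.10, and 3 lay below all controls (2.3% of all probe sets were lower without overlap). Cox6a2, the muscle form of a cytochrome oxidase subunit, was at 12.05, 11.44, 11.78 and 11.47 against 12.21, 12.36, 12.74 and 11.96, a difference of -0.63 (limma adjusted p 0.281). Glycolysis and glycogen genes were below 0 in 23 of 26 (median -0.44) and genes of the citric acid cycle and fatty acid oxidation in 35 of 39 (median -0.25). Pfkfb3, which makes the allosteric activator of phosphofructokinase, was at 7.81, 9.97, 9.87 and 6.84 against 10.23, 9.13, 9.25 and 9.73, so that its difference of -0.96 came from replicates 1 and 4. These medians depend on the scaling of the arrays: after quantile normalization they were -0.15 for the respiratory chain, -0.22 for glycolysis and -0.22 for the citric acid cycle list.

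All 19 tested fast-fibre sarcomere genes were below 0 as well, with a median of -0.64, none called and none without overlap; after quantile normalization the median was -0.40, with 18 of 19 below 0. The arrays did not behave as a group here. The mean over the list, relative to the NTg mean, was -1.58 in SOD1G93A replicate 2, -0.99 in replicate 4, -0.21 in replicate 1 and -0.03 in replicate 3, and -0.59 in NTg replicate 4. Creatine kinase Ckm was at 11.47, 7.27, 11.94 and 10.95 against 11.43, 11.69, 12.31 and 11.24, and tropomyosin Tpm1 at 11.32, 7.64, 11.73 and 11.15 against 11.80, 12.13, 12.66 and 10.15. Replicate 2 alone was low for both, and without it the differences were -0.21 and -0.28. Actin Acta1 differed by -0.69 (limma adjusted p 0.347) and myosin light chain Myl1 by -0.74 (0.352), and the 10 tested markers of the skeletal muscle fibre, which share members with this list, were all below 0 with a median of -0.54 (-0.14 after quantile normalization). Slow-fibre genes varied most between arrays of 1 group: relative to the NTg mean, the list stood at -1.16, -0.69, 0.06 and 1.79 in SOD1G93A and at 1.32, -1.13, 1.28 and -1.47 in NTg, and its median of -0.28 is small beside that spread. Tnnt1, the slow troponin, ran from 1.64 to 6.91 within NTg alone.

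**Figure D4:**
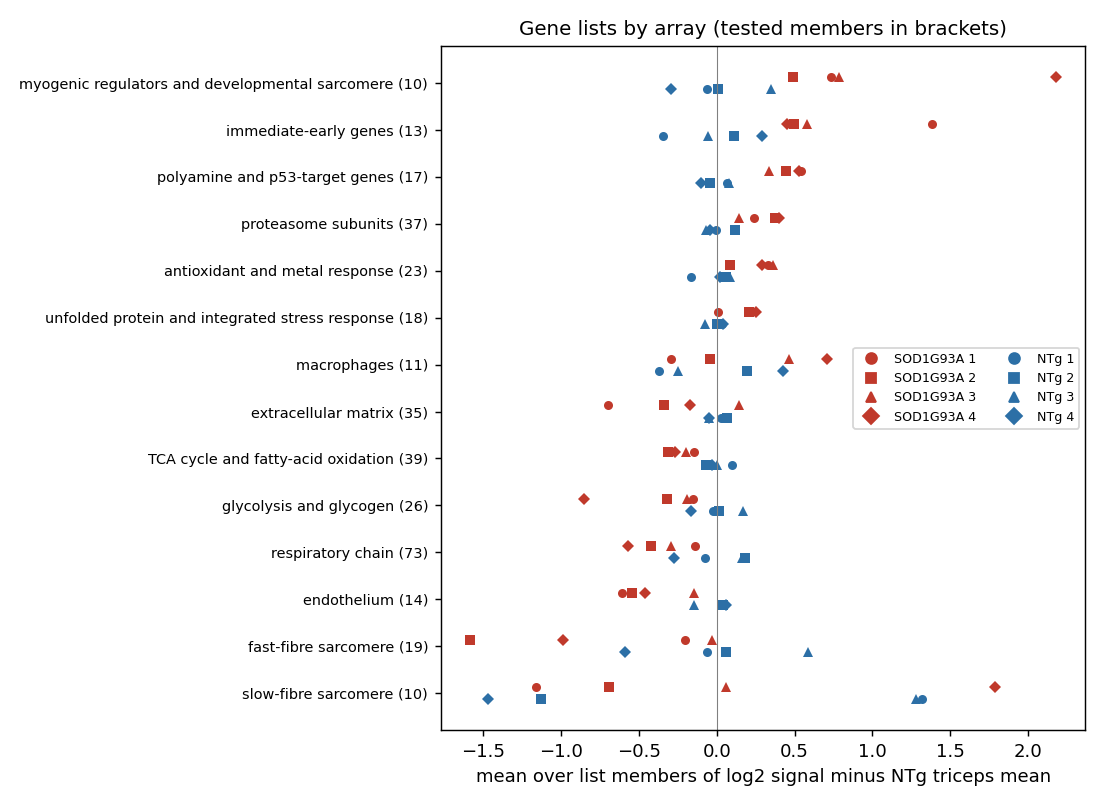
For 14 gene lists, the mean over tested members of the log2 signal minus the NTg triceps mean, in each array (red SOD1G93A, blue NTg; the marker shape gives the replicate, and the number of tested members is in brackets). Growth arrest and polyamine genes lie at 0.34 to 0.54 in the 4 SOD1G93A arrays, while the slow-fibre list spans from -1.47 to 1.79 with both groups mixed.

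Markers of the other cell types in muscle were measured beside these lists. All 14 tested endothelial genes were below 0 in SOD1G93A triceps, with a median of -0.43, and 4 lay below all controls (2.3% of all probe sets did); none was called on 8 arrays and 1 in the 16-array fit (0.12% of all were called lower there). Ptprb, a receptor phosphatase of vascular endothelium, was at 6.10, 5.86, 5.76 and 5.86 against 6.44, 6.93, 6.52 and 6.64, a difference of -0.74 (SE 0.17, limma adjusted p 0.156). Egfl7, secreted by endothelial cells, was at 6.90, 7.14, 7.44 and 6.86 against 7.80, 7.61, 7.97 and 7.68, a difference of -0.68 (limma adjusted p 0.170). Summed over the list, the linear signal ran from 3298 to 6717 in SOD1G93A and from 3938 to 6974 in NTg, so the sums overlapped. In bulk muscle, fewer cells of a type cannot be told apart from less RNA per cell. Extracellular matrix genes were below 0 in 31 of 35 (median -0.30), fibroblast markers in 8 of 9 (median -0.36) and the 3 tested Schwann cell genes in 3 of 3 (median -0.49), none called. Without SOD1G93A replicate 1 the medians were -0.16 for the matrix genes, with 25 of 35 below 0, and -0.19 for the fibroblast markers. Relative to the NTg mean the matrix list stood at -0.70, -0.34, 0.14 and -0.17 in the 4 SOD1G93A arrays. Of the Schwann cell genes, Pmp22 and Mbp, components of myelin, differed by -0.49 and -0.54.

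The direction of the macrophage markers depended on which arrays entered. Of 11 tested, 5 were above and 6 below 0 and the median was -0.01, but without SOD1G93A replicate 1 all 11 were above 0, and without replicate 2, 9 were. Their summed linear signal ran from 1306 to 2814 in SOD1G93A and from 1361 to 2336 in NTg. Lgals3, a galectin, was called: at 7.25, 7.50, 6.76 and 8.55 against 4.80, 4.70, 5.20 and 6.11, it rose by 2.31 (SE 0.39, limma adjusted p 0.0364; 0.0571 with the 20-array spread). That call was lost in 5 of the 8 fits that left out an array. The other 10 differed by -0.23 (Lyz2) to 0.43 (Ctss), and the complement genes C1qa and C1qb by -0.01 and 0.10. In gastrocnemius the list's median was 0.90 with 7 called, where 7.36% of all probe sets were called higher. The complement and antigen presentation list stood at 0.99 in gastrocnemius and 0.05 in triceps. In triceps 4 of the 8 tested genes of that second list were above 0, and 7 without SOD1G93A replicate 1. The difference between the muscles did not pass the adjusted test for any probe set.

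The remaining lists had no called member. Of 37 tested cytosolic ribosomal protein genes, 27 were below 0, but their median of -0.09 turned to 0.21 after quantile normalization, so the data give no direction for them. Clock genes were above 0 in 6 of 8, with a median of 0.28; Dbp, an output factor of the clock, was at 10.04, 9.02, 8.56 and 9.33 against 7.67, 8.54, 8.47 and 9.51, and the groups overlapped. The 5 tested interferon response genes had a median of 0.12, and Irf1, a factor that drives interferon target genes, was at 7.08, 7.14, 7.29 and 6.96 against 7.37, 7.50, 7.68 and 7.46, below all controls in all SOD1G93A arrays, a difference of -0.39 that did not pass the test (limma adjusted p 0.305). Smooth muscle and pericyte markers were below 0 in 6 of 8 (median -0.31), among them Tagln, an actin-binding protein of smooth muscle, at -0.56. Adipocyte markers depended on single samples: Retn, the fat hormone resistin, was at 10.09 in NTg replicate 4 and 9.18 in SOD1G93A replicate 3 and between 6.78 and 7.77 in the other arrays. The 3 tested satellite cell markers had a median of -0.16, and the 3 tested hindlimb position genes, which would tell a hindlimb from a forelimb muscle, of -0.14. Too few lymphocyte (1) and forelimb position (1) genes were tested to describe those lists.

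The 1 probe set called lower, 1428361_x_at, is annotated to several haemoglobin genes and is not assigned to a single one. It was at 10.97, 10.31, 11.18 and 11.13 in SOD1G93A triceps and at 12.33, 12.04, 11.83 and 11.99 in NTg triceps, all SOD1G93A arrays below all controls. It fell by 1.15 on the log2 scale (SE 0.20, limma adjusted p 0.0433; 0.0663 with the 20-array spread), and the call was lost in each of the 8 fits that left out an array. Of the other probe sets annotated to several haemoglobin genes, 1452757_s_at differed by -1.13 (limma adjusted p 0.163), 1417184_s_at by -1.21 (0.181) and 1417714_x_at by -2.07 (0.198). Haemoglobin is made by red blood cells; the part of the blood content of each sample in this result was not tested, since no marker of red cells with a symbol of its own was bright enough.

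Among genes with lower values that were not called, those with the smallest p and no overlap were led by Vtn, Mgst3 and Ptprb. Vitronectin (Vtn), an adhesive glycoprotein, was at 5.73, 6.04, 6.10 and 6.18 against 6.88, 6.93, 6.57 and 6.63, a difference of -0.74 (SE 0.17, limma adjusted p 0.148). Mgst3, a microsomal glutathione transferase, was at 9.77, 9.19, 9.41 and 9.15 against 10.37, 10.35, 10.19 and 9.77, a difference of -0.79 (limma adjusted p 0.155). Tppp3, a tubulin polymerization-promoting protein, was at 6.82, 6.59, 6.69 and 6.37 against 7.52, 7.61, 7.13 and 7.05, a difference of -0.71 (limma adjusted p 0.181). The remaining genes chosen by the rule, Tagln2, Lynx1, Ltbp4, Vapb, Nudt7, Mcrip2, Pitpnc1 and Fstl1, differed by -0.94 to -0.50 with limma adjusted p between 0.163 and 0.252. A second Vapb probe set differed by 0.06 (limma adjusted p 0.915). Slc41a3, a magnesium transporter, was at 7.47, 7.78, 7.23 and 6.29 against 8.02, 8.38, 8.36 and 8.02, a fitted ratio of 0.499 to the controls (limma adjusted p 0.228).

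The called genes of triceps were also higher in the SOD1G93A gastrocnemius. All 23 were called there in the 16-array fit, in which 7.36% of all probe sets were called higher in gastrocnemius. The labels do not say which samples of the 2 muscles came from the same mouse, and the design text gives 4 mice of each genotype for both muscles. By that text the 2 muscles came from the same mice, whereas the fit treated the 16 arrays as independent. After group means were subtracted, same-numbered SOD1G93A triceps and gastrocnemius arrays correlated at 0.57, -0.10, -0.04 and 0.62 (replicates 1 to 4). For NTg these values were 0.24, 0.13, 0.21 and -0.09. With equal numbers within a genotype taken as 1 mouse, the consensus correlation was 0.216. The count of called probe sets was larger in gastrocnemius (554 higher and 573 lower) than in triceps in the same fit (77 and 9), and the median absolute log2 difference was 0.23 in gastrocnemius and 0.18 in triceps. The difference between the muscles was tested directly as an interaction: with limma, 0 of 7523 probe sets passed the adjusted threshold and 790 had an unadjusted p under 0.05 (10.5%). That count rose to 22 when NTg triceps replicate 1 was left out, to 2 without SOD1G93A triceps replicate 4 and to 1 without SOD1G93A gastrocnemius replicate 1. Nabp1 changed by 2.00 in triceps and 0.75 in gastrocnemius (limma interaction p 0.00233 unadjusted, 0.395 adjusted), and Tubb6 by 3.60 and 5.38 (0.0302 unadjusted, 0.458 adjusted). The gastrocnemius controls of Tubb6 lay between 2.03 and 4.37, under the floor, and with dim values set to it the changes were 3.05 and 3.70.

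**Figure D5:**
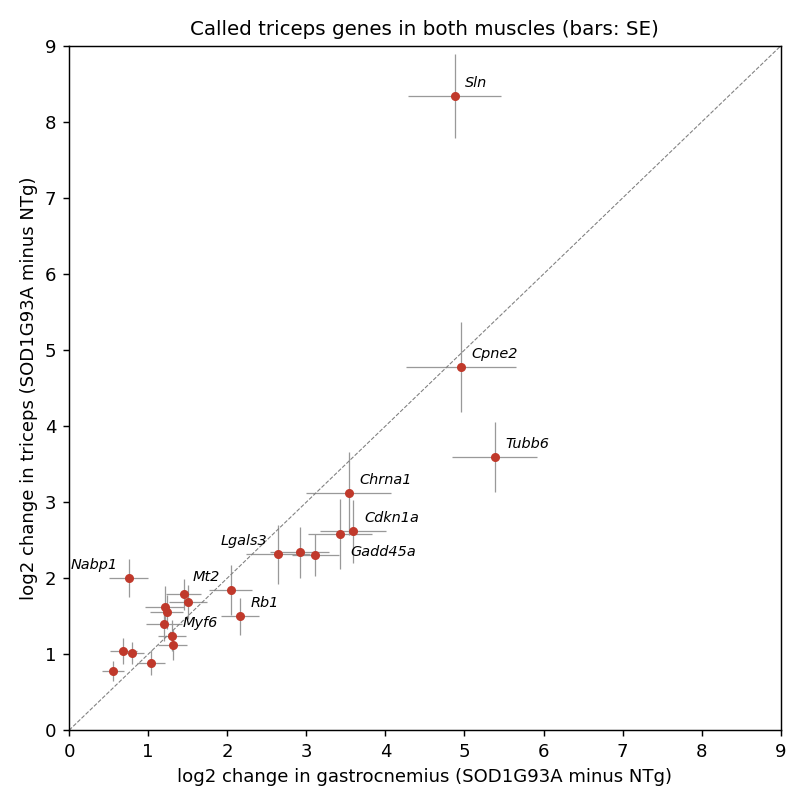
Log2 change (SOD1G93A minus NTg) of the 23 genes called in triceps, in gastrocnemius (x axis) and in triceps (y axis), with standard errors; the dashed line marks equal change. Sln (4.88 and 8.34) and Nabp1 (0.75 and 2.00) lie above the line and Tubb6 (5.38 and 3.60) below it.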

How the data were processed

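Total RNA was extracted with Trizol, cleaned on RNeasy columns and, from 4 ug, labelled with biotin for Affymetrix arrays, per the labels' protocols. The deposited values are MAS5 signals on a log2 scale, per the submitters' processing notes and the values (-3.66 to 13.3); its version and target level are not stated in the labels. MAS5 has no floor, so dim values are uncertain, and no detection calls were used. The number of arrays limits the precision. They were used without further scaling. The dimmest 30% of probe sets, with a 20-array mean under 5.88, were left out. The platform annotation named 1 gene for 9874 probe sets, several for 387 and none for 487; gene IDs tied 9862 to RefSeq (GRCm38.p6). The brightest probe set stood for its gene. No pair of arrays was identical.

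The comparison was fitted with limma 3.58.1 in R 4.3.3 (lmFit, eBayes with a trend) on 8 arrays with 6 residual degrees of freedom, with Benjamini-Hochberg adjustment over 7523 probe sets; an adjusted p under 0.05 was called. P-values for the muscle difference came from the 16 arrays of both muscles, treated as independent. The script was tested on data with known changes. Named were up to 15 rises and 15 falls, called first and then by smallest p with no overlap between groups, for each list at most 4 called genes, or else the 2 of smallest p, genes called with the 20-array spread alone, and mouse Sod1; further genes were chosen after their values were seen. The members and the 35 lists (23 of processes, 2 of limb position, 10 of cell type markers) were chosen with earlier results of these data known, and no set test was run. After each group's mean was subtracted for every probe set, same-numbered SOD1G93A and NTg triceps arrays correlated at 0.04 to 0.16, not all over 0.1. They were not taken as pairs. The alternatives covered the arrays in the fit, scaling, filter, floor, prior, array weights, replicate block, averaging of probe sets and each array left out. Motifs were searched on both strands of RefSeq promoter windows. Figures were drawn with matplotlib 3.10.9.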

Additional observations from a re-analysis of the deposited data

Results flagged for a closer look

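In 254 groups of 4 triceps arrays (127 named probe sets in 2 groups), 14 had an array whose gap to its nearest neighbour exceeded the 95% limit of Dixon's test, where chance alone gives about 1 in 20, or 12.7. Of the 14, 7 were SOD1G93A replicate 4 lying above the others: Ankrd1 at 10.8 (next 6.73), Myog at 10.2 (7.8), Myl4 at 8.92 (6.86), Myh8 at 9.05 (4.91), Myh3 at 8.24 (5.45), Anxa7 at 8.7 (8.17) and the integrin Itga7 at 7.58 (7.15). Itga7 was also lowest in NTg replicate 2, at 6.52 (7.05). Tropomyosin Tpm1 was low in SOD1G93A replicate 2 at 7.64 (11.15). Hoxd9 was high in SOD1G93A replicate 2 at 6.8 (6.45), and the pericyte channel Kcnj8 in SOD1G93A replicate 3 at 6.09 (5.54). Among the controls, Ltbp4 was low in NTg replicate 3 at 7.03 (7.17), and NTg replicate 4, whose description names the other muscle, was high for Tagln at 6.76 (6.1) and low for Sdc4 at 5.94 (7.27).

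The groups lay on opposite sides in both muscles for 3 genes, which had every SOD1G93A array on one side of every control in triceps and on the other side in gastrocnemius: Dglucy (log2 change 0.52 in triceps and -0.42 in gastrocnemius), Gorasp2 (0.32 and -0.22) and Pnpla7 (0.29 and -0.34). None was called in triceps, and the tests of the difference between the muscles gave unadjusted limma p of 0.00075, 0.0021 and 0.0028 and adjusted p of 0.370, 0.395 and 0.395. Of all 7523 tested probe sets, 353 lay above and 173 below every control in triceps, and 954 and 1004 in gastrocnemius. How many opposite pairs chance alone would give was not tested, so the count of 3 is no evidence of an opposed response.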

How the results depend on the processing

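The number of probe sets called higher in triceps (26) became 77 with the spread of 16 arrays and 146 with that of 19 arrays (crushed replicate 4 left out), and 16 after quantile normalization, with a filter at 60% and with the replicate block. The number called lower (1) became 9 and 21 in the 16- and 19-array fits and 2 without a filter. It became 0 in the 20-array fit, after quantile normalization, without a trend and with the replicate block. With probe sets averaged within genes it was also 0. That last fit takes only probe sets with a single gene symbol, so it leaves out 1428361_x_at and cannot test its call. With the replicate number as a block, which pairs samples by a number alone, 11 of the 23 called genes stayed called. Leaving out single arrays gave 9 to 28 higher and 0 lower; of the 23 called genes 7 stayed called in all 8 such fits. For the difference between the muscles, the count of 0 became 0 to 22 when 1 of the 16 arrays was left out. Values of uncalled genes that changed sign were Hoxd8 (-0.239 to 0.0623 over the fits without 1 array, above 0 without NTg replicate 1 or 3), Retn (-0.85 to 0.35, above 0 without NTg replicate 4) and the dimmer probe set of Chrng below the filter (-0.97 without SOD1G93A replicate 4 and -0.28 without NTg replicate 4). The cause of these changes was not tested. No called gene changed direction under any alternative run. The fits that left out arrays with no filter, and the difference between the muscles with dim values at the floor, were chosen after seeing the data.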
